A study of Mus musculus with 47 samples.

Results

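The nuclear genes of oxidative phosphorylation were followed through all 17 groups of a mouse study of intestinal tumours. A gene was taken by its symbol, as a numbered Nduf a, b, c, s or v gene, a Uqcr gene, one of Sdha to Sdhd, a Cox4 to Cox8 gene or an Atp5 gene, without pseudogenes. Of 24062 gene symbols, 84 met this rule, and 78 of them had a summed count of 100 or more over the 47 libraries. These 78 were 34 genes of complex I, 4 of complex II, 8 of complex III, 16 of complex IV and 16 of complex V. The 6 left out were Atp5g2 with 69 counts in all, Cox6a2 with 34, Cox7b2 with 33, Cox8b with 31, Cox8c with 4 and Ndufs5 with 0, and the lowest ones kept were Cox4i2 with 117, Ndufa4l2 with 233 and Atp5l with 291. The symbols also take in Ndufa4l2, Cox7a2l, Atp5s and Atp5sl, which are relatives or partners of the subunits rather than core subunits. Atp5s and Atp5sl, which RefSeq names Dmac2l and Dmac2, were counted with complex V by symbol alone.

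The respiratory chain sits in the inner mitochondrial membrane. Complex I takes electrons from NADH and complex II, which is also an enzyme of the tricarboxylic acid cycle, takes them from succinate. Complexes III and IV pass them on to oxygen, and complex V uses the proton gradient so built to make ATP. Most subunits are encoded in the nucleus and a few of complexes I, III, IV and V in mitochondrial DNA, whereas all subunits of complex II are nuclear. In the intestine the chain supplies absorptive enterocytes with ATP for transport. Transcripts encoded in mitochondrial DNA were not analysed here.

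An age of 15 to 19 weeks was given for every library, of tissue and of organoids alike. C57BL/6 (B6) mice, C5 mice, which are C57BL/6 with chromosome 5 of PWD/Ph, C5F1 mice from B6 and C5, and B6xPWD hybrids each gave wild-type mucosa and, from animals with the genotype APC min (Min), non-tumour mucosa and adenoma. PWD/Ph (PWD) mice gave wild-type mucosa. Each of these 13 groups had 3 libraries. The Min allele is a germline mutation of Apc, so every cell of the Min mice carried it, in adenoma and mucosa alike, and no adenoma came from wild-type mice. The remaining 4 groups were APC min organoids, cultures of epithelium, of B6 or C5 background, untreated or given 5-aza-cytidine (AZA), an inhibitor of DNA methyltransferases, with 2 libraries per group. The labels gave no dose or time for AZA, no sex, and did not say whether organoids were grown from adenoma or mucosa. No label says that replicates came from different mice or cultures, so the error behind each p is that between libraries, which may be technical.

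Depth ranged from 2726505 to 20070696 counts per tissue library and from 4389898 to 8373764 per organoid library, of which the members took 9082 to 153023 and 67110 to 151615. The ribosomal precursor Rn45s took 16.4% to 72.7% of the counts in tissue and 0.760% to 1.61% in organoids, and 6 tissue libraries stood above 55%: B6 wild-type 3, C5 wild-type 1 and, of C5F1, wild-type 1, Min mucosa 1 and adenoma 1 and 3. Smooth muscle markers were read in every tissue group, summing to 40.7 to 2286 CPM (counts scaled to library size) in adenoma and Min mucosa. Enterocyte markers were present in each tissue and organoid library. Reads of all backgrounds were aligned to mm10, the B6 reference, so a lower level of a PWD transcript and poorer alignment of its reads cannot be told apart. In bulk samples fewer cells of a type and less RNA per cell cannot be told apart either.

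Sequence upstream of Sdhb, Ndufa11, Atp5k and Atp5h is shown to give examples of the motifs counted in the next paragraph, in members that were called in a comparison; the 4 were chosen after their values were seen. The windows are the 150 bases before the annotated start on GRCm38, from RefSeq, printed 5′ to 3′ on the strand of the gene. Capitals mark matches to the site of nuclear respiratory factor 1 (NRF1), a transcription factor known for many respiratory genes, in the first 3, and to the core site of ETS factors in the last. Sdhb lies on the plus strand (chr4:140961121-140961270), Ndufa11 on the plus strand (chr17:56717612-56717761), Atp5k on the minus strand (chr5:108434400-108434549) and Atp5h on the minus strand (chr11:115419920-115420069).
Sdhb: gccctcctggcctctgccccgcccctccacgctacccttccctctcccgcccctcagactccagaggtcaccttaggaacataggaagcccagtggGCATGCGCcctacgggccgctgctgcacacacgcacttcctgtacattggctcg
Ndufa11: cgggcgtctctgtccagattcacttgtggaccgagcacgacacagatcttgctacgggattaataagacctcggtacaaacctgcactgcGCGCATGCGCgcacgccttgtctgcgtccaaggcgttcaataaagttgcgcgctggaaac
Atp5k: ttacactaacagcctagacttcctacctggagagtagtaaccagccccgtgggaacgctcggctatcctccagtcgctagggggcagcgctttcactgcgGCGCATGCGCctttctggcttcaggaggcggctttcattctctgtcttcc
Atp5h: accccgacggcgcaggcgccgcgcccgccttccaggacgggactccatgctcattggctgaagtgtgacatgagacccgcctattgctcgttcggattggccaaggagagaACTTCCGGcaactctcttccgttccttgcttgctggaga

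Windows of 300 bases around the start (250 before, 50 after) were available for 65 of the 78 members and were searched on both strands. Of these 65 members 4 held the full palindrome, GC followed by GCATGCGC (6.15%), against 290 of 27025 genes with a window (1.07%). The shorter form GCATGCGC alone, which every full palindrome contains, was in 9 members (13.8%) and 3.05% of genes. The ETS letters CCGGAAGT were in 5 members (7.69%) and 4.31% of genes. In the 250 bases before the start, Cox6a1, Ndufa6, Ndufa8 and Atp5l also held the shorter form; Cox6a1, Ndufa6 and Ndufa8 were not called in adenoma and Atp5l did not pass the low-count filter in tissue. These are matches of letters and not measured binding sites.

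Per kilobase of transcript, the level over the 39 tissue libraries was highest for the catalytic subunits of ATP synthase, Atp5b at 491 CPM per kilobase and Atp5a1 at 409. Cox8a at 353 and Cox6a1 at 285, small subunits of complex IV, and Atp5g3 at 283, a gene of the proton-carrying c ring, came next. The 4 genes of complex II lay at 109 for Sdha, the flavoprotein, 95.3 for Sdhb, the iron-sulfur subunit, and 95 and 38.9 for the membrane anchors Sdhd and Sdhc. In 4 sets of isoforms, 1 gene carried nearly all reads that were assigned to a member. Cox4i1 stood at 241 CPM per kilobase against 0.563 for Cox4i2, Cox6b1 at 239 against 2.66 for Cox6b2 and Ndufa4 at 209 against 0.413 for Ndufa4l2. Atp5g3 stood at 283 against 0.345 for Atp5g1, or 205 against 1.63 CPM without division by length. Of the Cox7a genes, Cox7a2 stood at 119, Cox7a1, the heart and muscle form, at 39.3, and Cox7a2l, a factor of supercomplex assembly, at 26.1. Genes in near-identical copies are less certain, since 54.3% of the 36-base words of Cox7c and 69.4% of those of Atp5l occur in transcripts of other genes. For Atp5g2, the c-ring gene below the count minimum, the share was 87.6%, so its low count is uncertain too.

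Summed over members, adenoma had the lowest level of the 3 tissues. The summed level was 5619 ± 812 CPM (SD, n = 12) in adenoma, 6893 ± 782 CPM (SD, n = 12) in Min mucosa and 7480 ± 865 CPM (SD, n = 12) in wild-type mucosa of the same 4 backgrounds. In B6 the adenoma libraries ran from 5194 to 5408 CPM, below Min mucosa at 5675 to 7167 CPM, and in C5 from 5641 to 6070 CPM, below 6568 to 6618 CPM. In C5F1 adenoma ran from 4299 to 5608 CPM against 6124 to 6988 CPM. Only the B6xPWD ranges overlapped, at 4965 to 7402 CPM against 6776 to 8711 CPM. PWD mucosa had the highest sum of the 13 tissue groups, 10977 ± 2120 CPM (SD, n = 3), each of its libraries except the lowest, at 9031 CPM, lying above every other tissue library, of which the highest was at 9070 CPM.

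**Figure D1:**
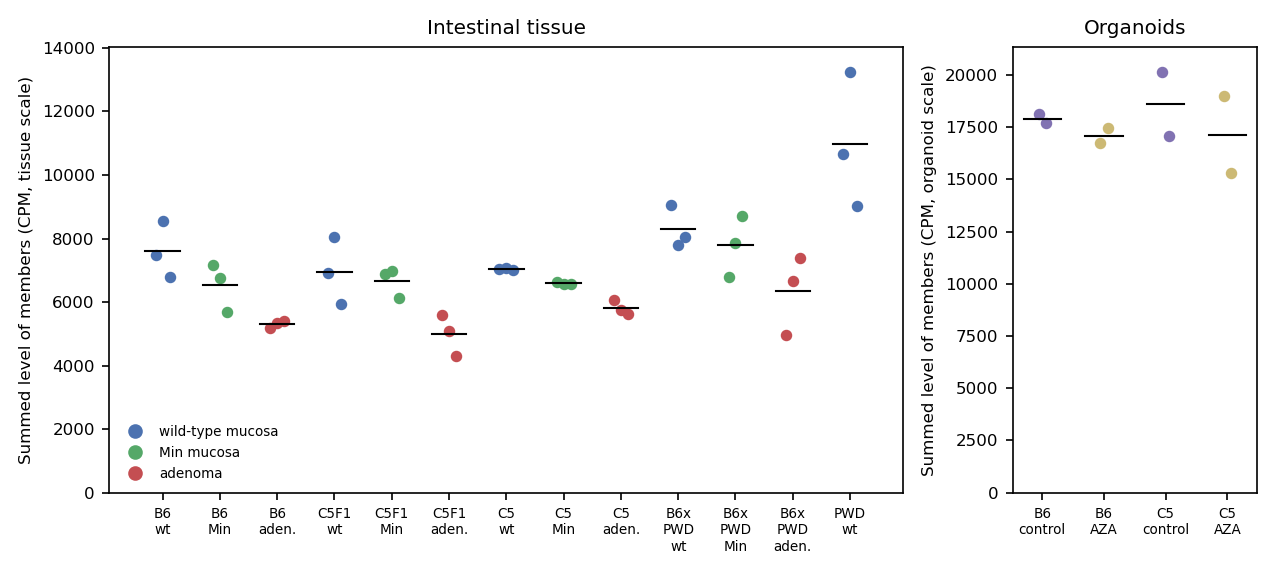
Summed level of the members in each library, in CPM, with tissue groups (left; wt, wild-type mucosa; Min, non-tumour mucosa; aden., adenoma) and organoid groups (right) on their own normalised scales. Points are libraries and lines are group means; adenoma lies at 4299 to 7402 CPM and Min mucosa at 5675 to 8711 CPM.

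Adenoma was compared with non-tumour mucosa of Min mice, as the mean over the 4 backgrounds. Of 75 members tested, 36 fell and 0 rose (48.0%), where 21.5% of the 13657 genes tested were lower. The median change was −0.29 on the log2 scale against 0.01 over all genes, and 74 of 75 members had a negative change, where 48.8% of all genes did. The range ran from −0.57 for Uqcrb to 0.01 for Ndufc2. Here and throughout, a member is called where edgeR's quasi-likelihood F-test gave an adjusted p under 0.05, with the Benjamini-Hochberg adjustment made over every gene in the fit.

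Complex II was the complex in which every member fell. Sdhb, which passes electrons from the flavin to ubiquinone, ran from 52.0 to 106 CPM in adenoma with a median of 69.7 and from 80.7 to 164 CPM in Min mucosa with a median of 101. Within backgrounds its 3 adenoma libraries lay below the 3 of Min mucosa each time: 60.9 to 67.0 against 80.7 to 102 CPM in B6, 52.0 to 70.0 against 81.2 to 111 CPM in C5F1, 74.3 to 86.1 against 95.2 to 105 CPM in C5, and 69.4 to 106 against 110.2 to 164 CPM in B6xPWD. The groups therefore overlapped only across backgrounds. The change was −0.55 ± 0.09 (SE) on the log2 scale, 1.46-fold lower, with an adjusted p of 1.30e-05 by edgeR.

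Sdha, the subunit that oxidises succinate, ran from 172 to 299.6 CPM in adenoma with a median of 237 and from 242 to 401 CPM in Min mucosa with a median of 340.4. Its ranges were also apart in every background: 172 to 189.8 against 242 to 307 CPM in B6, 197 to 280.1 against 338 to 401 CPM in C5F1, 247 to 299.6 against 329.7 to 368 CPM in C5, and 226 to 265 against 332 to 357 CPM in B6xPWD. It fell by 0.51 ± 0.09 (SE) on the log2 scale (edgeR adjusted p = 1.47e-05). The membrane anchors fell too. Sdhc went from 125 ± 16.3 CPM in Min mucosa to 91.2 ± 12.7 CPM in adenoma (SD, n = 12 each; edgeR adjusted p = 0.000521) and Sdhd from 117 ± 19.2 to 88.3 ± 14.1 CPM (SD, n = 12 each; edgeR adjusted p = 0.0120). Of the 4, Sdhd lost its call with totals without Rn45s (edgeR adjusted p = 0.173) and without the libraries above 55% Rn45s (edgeR adjusted p = 0.0694).

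Separation in every background was seen for 7 of 75 members, Atp5b, Atp5c1, Cox6c, Sdha, Sdhb, Sdhc and Uqcrc2, where 2.91% of all genes had all adenoma libraries below all Min mucosa libraries in each of the 4 backgrounds. They include 3 of the 4 genes of complex II.

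In complex III, 5 of 8 members fell, with a median of −0.29. Uqcrc2, a core protein of the complex, ran from 101 to 198 CPM in adenoma with a median of 152 and from 161 to 249.9 CPM in Min mucosa with a median of 205 (log2 change −0.43 ± 0.08 SE, edgeR adjusted p = 3.06e-05). Uqcrfs1, the Rieske iron-sulfur protein, lay at 88.5 ± 18.4 against 119 ± 25.4 CPM and Uqcrc1, the other core protein, at 169 ± 23.9 against 209.6 ± 31.5 CPM (SD, n = 12 each). Uqcrb, a small subunit near the ubiquinone site, had the most negative change of all members and a low level, 10.2 ± 3.46 against 15.1 ± 3.88 CPM (SD, n = 12 each). Of the 36-base words of Uqcrb 51% also occur in other genes, so its level is less certain. With backgrounds pooled, the ranges of Uqcrc2 in the 2 tissues overlapped.

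In complex IV, 6 of 14 members fell. Cox7b ran from 50.4 to 82.2 CPM in adenoma and from 75.6 to 135 CPM in Min mucosa, 63.6 ± 9.63 against 92.6 ± 17.5 CPM (SD, n = 12 each; log2 change −0.53 ± 0.09 SE, edgeR adjusted p = 1.67e-05). Cox6c ran from 42.1 to 63.4 CPM against 60.4 to 89.6 CPM, so that only the edges of the groups met (edgeR adjusted p = 0.000105). Cox5b, a zinc-binding subunit, lay at 22.1 ± 5.20 against 30.7 ± 9.35 CPM and Cox4i1 at 142 ± 19.3 against 189 ± 41.0 CPM (SD, n = 12 each). Among the isoforms, Cox4i1, Cox7a2 at −0.29 and Cox6b1 at −0.32 were called, while Cox6a1 at −0.26, Cox8a at −0.27, Cox7a2l at −0.13, Cox6b2 at −0.22 and Ndufa4 at −0.10 were not. Cox7a1 had a change as large as that of complex II, −0.52 ± 0.26 (SE), but a wide spread, 9.92 ± 4.26 against 14.9 ± 7.73 CPM (SD, n = 12 each), and was not called (edgeR adjusted p = 0.0986).

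In complex V, 10 of 15 members fell, with a median of −0.33. Atp5c1, the central shaft of the motor, lay at 78.7 ± 20.3 against 109.7 ± 23.9 CPM (SD, n = 12 each; log2 change −0.49 ± 0.10 SE). Atp5o, which joins the stalk to the head, lay at 28.9 ± 4.96 against 43.3 ± 13.3 CPM, Atp5f1, of the peripheral stalk, at 61.5 ± 17.5 against 77.9 ± 15.1 CPM, and Atp5g3 at 147 ± 26.4 against 200.0 ± 37.9 CPM (SD, n = 12 each). Atp5k, a small membrane subunit, lay at 10.9 ± 2.21 against 14.9 ± 2.81 CPM (SD, n = 12 each; log2 change −0.44 ± 0.14 SE, edgeR adjusted p = 0.0126). Atp5g1, the other c-ring gene tested, was near 1 CPM in both tissues and not called (log2 change −0.35 ± 0.32 SE).

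Complex I held the smallest share of calls, 11 of 34, with a median of −0.21. Of its 7 core subunits 4 fell, and of the 27 accessory ones 7. Ndufs1, which carries iron-sulfur clusters of the electron path, lay at 58.0 ± 10.6 against 73.0 ± 13.4 CPM (log2 change −0.33 ± 0.08 SE), and Ndufv2, another core subunit, at 60.1 ± 8.31 against 73.2 ± 7.43 CPM (SD, n = 12 each). Of the accessory subunits, Ndufa9 lay at 40.1 ± 6.29 against 52.0 ± 7.92 CPM and Ndufb9 at 66.4 ± 11.4 against 83.8 ± 12.1 CPM (SD, n = 12 each). Ndufa11, another accessory subunit, lay at 20.8 ± 4.57 against 27.0 ± 5.70 CPM (SD, n = 12 each; log2 change −0.38 ± 0.12 SE, edgeR adjusted p = 0.0111). By transcript length over all complexes, 7 of 27 members under 700 nt and 28 of 47 longer ones were lower, and of all genes 54 of 255 and 2818 of 12877; whether calls among the members differ with length was not tested.

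**Figure D2:**
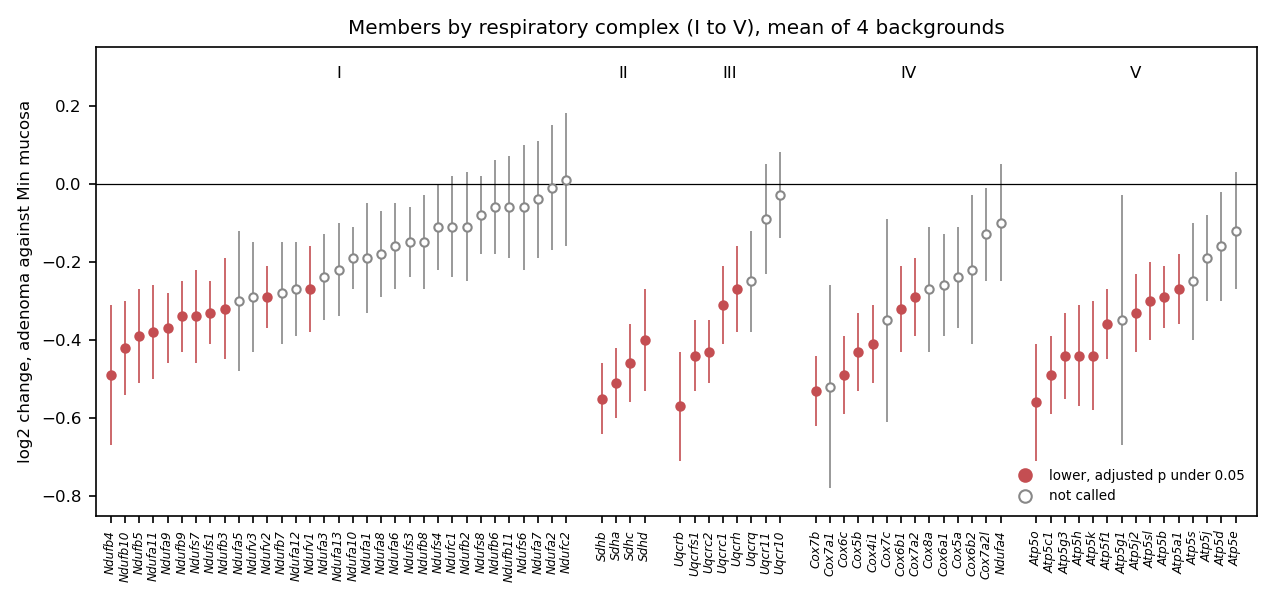
Log2 change of tested members in adenoma against Min mucosa (vertical axis), grouped by complex, as the mean of 4 backgrounds with its SE. Filled points had an adjusted p under 0.05; 36 of the 74 members shown are filled, all below 0, including all 4 of complex II.

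Other genes of mitochondrial energy supply did not all follow. Of all 13657 genes tested 6170 were called in this comparison, 2932 of them lower and the rest higher. Of 17 genes of the tricarboxylic acid cycle and its entry 11 fell and 0 rose (median −0.32), among them Sucla2, a subunit of succinyl-CoA synthetase, by 0.69, Ogdh, of the oxoglutarate dehydrogenase, by 0.76, and Cs, citrate synthase, by 0.71 on the log2 scale. Of 9 carriers and electron shuttles 5 fell, including Cycs, cytochrome c, by 0.66, and 1, the uncoupling protein gene Ucp2, rose by 0.29. Of 75 mitochondrial ribosome genes 14 rose and 1 fell, and of 41 assembly factors 5 rose and 6 fell; Sdhaf1, an assembly factor of complex II, rose by 0.74. Of 15 regulators, Ppargc1a, a coactivator of mitochondrial genes, changed by −0.86, Esrra, its nuclear receptor partner, by −0.69 and Tfam, which maintains mitochondrial DNA, by −0.28, whereas Pprc1 and Myc rose by 0.80 and 0.79. Of 14 glycolysis genes 6 rose, led by the glucose transporter Slc2a1 at 2.22, and 1, Pfkp, fell by 0.39.

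Cell type markers moved in the same comparison. Of 9 enterocyte markers 7 were lower (median −1.18), with summed levels of 2020 to 9963 CPM against 7124 to 22290 CPM in Min mucosa, and all 7 smooth muscle markers were lower (median −1.07), at 40.7 to 960.3 against 117 to 2286 CPM. Of 6 proliferation markers 4 were higher, at 431 to 586 against 295 to 552 CPM. Of 4 Paneth cell markers 3 were lower and 1 higher, with a summed median of 2085 against 5794 CPM, and of 4 goblet cell markers 3 were lower (3670 against 4207 CPM). Of 5 plasma and B cell markers 1 was lower (433 against 884 CPM), of 5 T cell markers 2 (6.55 against 20 CPM) and of 5 myeloid markers 4 (89.0 against 134 CPM). Of 4 fibroblast markers 2 were higher (255 against 157 CPM), and the 1 pancreas marker tested was higher (20 against 2.65 CPM over the list of 4). Both striated muscle markers tested were lower (7.41 against 16.6 CPM over the list of 6), and none of 5 fat markers was called. The median share of Rn45s was 49.2% in adenoma and 40.0% in Min mucosa. The part of these shifts in the members' change was not tested.

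The size of the fall depended on the scaling. With library totals without Rn45s in place of trimmed-mean (TMM) factors, the median of all genes moved to 0.20 and that of the members to −0.09, so that relative to all genes the members stood at −0.29 against −0.30 with TMM. On that scale 6837 of the 13657 genes tested were called, in either direction. Of the members 11 were called lower and 51 had a negative sign. Ndufs1, Ndufv2, Ndufa9, Ndufb9, Uqcrc1, Cox4i1, Atp5f1 and Atp5g3 were among those that lost their call. The mitochondrial ribosome list had 38 higher and 0 lower and the assembly factors 13 higher and 1 lower. The tricarboxylic acid cycle list had 1 higher and 6 lower. Without the 6 libraries above 55% Rn45s, which leaves 1 C5F1 adenoma library, the median of the members was −0.29.

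Within single backgrounds fewer members passed. In B6, 11 of 75 fell (14.7%), a share near that of all genes (13.7%), with a median of −0.32. In C5F1, 12 fell (16.0%, against 9.66% of all genes), with a median of −0.37. Atp5c1, Cox5b, Cox6c, Cox7b, Sdha, Sdhb and Uqcrc2 were called in both, 63.6% of the members lower in B6 and 58.3% of those lower in C5F1; over all genes the 983 lower in both were 52.7% of the 1866 and 74.5% of the 1319. Uqcrb in B6, at 6.07 against 12.6 CPM (log2 change −0.99 ± 0.29 SE), and Ndufb5, an accessory subunit of complex I, in C5F1, at 28.2 against 47.9 CPM (−0.75 ± 0.24 SE), had large changes. In B6xPWD 2 members fell, Sdhb and Sdha (2.67%), a smaller share than that of all genes (6.98%), with a median of −0.30. In C5 none was called (0.176% of all genes were lower), with a median of −0.16. There 2 members had an unadjusted p under 0.05 by edgeR and 0 were called by DESeq2.

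Same-numbered adenoma and Min mucosa libraries deviated together, and with the replicate number as a block 17 members were called in B6 and 5 in B6xPWD. Of all 13657 genes tested, the block called 4104 in B6 and 2407 in B6xPWD, in either direction. Without it 3647 and 2241 were called. Leaving out 1 library gave 3 to 11 calls in B6 and 2 to 18 in C5F1; every B6 library except Min mucosa 3 brought the count to 5 or fewer, and C5F1 adenoma 2 or 3 or Min mucosa 2 to 6 or fewer. Without the libraries above 55% Rn45s, which leaves 1 C5F1 adenoma, C5F1 had 0 calls, and B6xPWD had 0 calls without adenoma 1 or Min mucosa 3 and 1 without adenoma 3 or Min mucosa 2.

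The backgrounds were not shown to differ in this change. For the difference between the adenoma change of another background and that of B6, edgeR called 0 of 75 members for C5 (0.110% of genes called), for B6xPWD (0.630%) and for C5F1 (0%); members at an unadjusted p under 0.05 numbered 1, 0 and 0, and DESeq2 called 0 in each. For Sdhb the difference from B6 was 0.23 ± 0.26 (SE) in C5, −0.11 ± 0.26 in B6xPWD and −0.12 ± 0.26 in C5F1 on the log2 scale. These 3 differences share the B6 libraries.

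**Figure D3:**
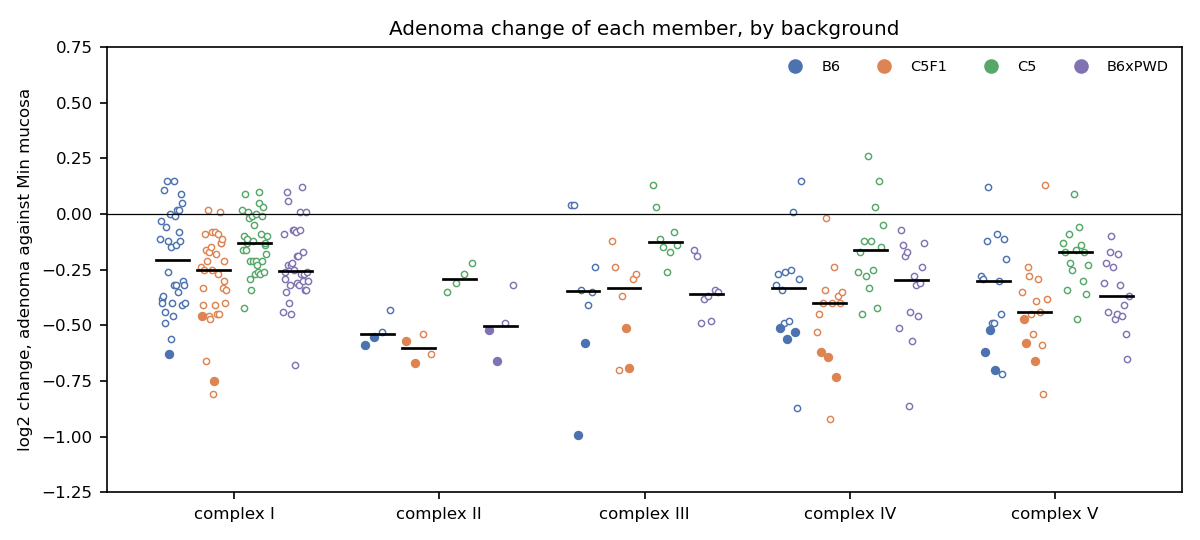
Log2 change of each member in adenoma against Min mucosa (vertical axis) by complex and background; bars are medians and filled points had an adjusted p under 0.05. The median over all members was −0.32 for B6, −0.37 for C5F1, −0.16 for C5 and −0.30 for the B6xPWD hybrid.

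Non-tumour mucosa of Min mice was set against wild-type mucosa of the same 4 backgrounds. No member was called by edgeR (0.00732% of genes called) or by DESeq2, and 8 of 75 had an unadjusted p under 0.05. The median was −0.14 against 0 over all genes and 71 of 75 members had a negative sign, where 50.6% of all genes did. The smallest p were those of Ndufb9, at −0.27 ± 0.09 (SE; edgeR adjusted p = 0.440), and Sdhb, at −0.26 ± 0.09 (SE; edgeR adjusted p = 0.497).

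Wild-type mucosa of PWD was compared with that of B6. In PWD 23 of 75 members were higher (9.96% of all genes were) and 2 were lower (8.79%), with a median of 0.43 on the log2 scale against all genes near 0. The calls covered 11 genes of complex I, 1 of complex II, 3 of complex III, 3 of complex IV and 7 of complex V. The 2 lower ones, Cox5b and Atp5h, had the most negative changes of all members, and both were also lower in the B6xPWD hybrid.

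Cox5b read 5.33, 6.49 and 4.55 CPM in the PWD libraries and 33.8, 33.7 and 41.9 CPM in those of B6. Every PWD value was thus less than any B6 value, by a log2 change of −2.63 ± 0.22 (SE; edgeR adjusted p = 1.99e-10). In wild-type mucosa of B6xPWD, which carries 1 allele of each parent, it read 22.1, 23.1 and 14.5 CPM, between the parents. Atp5h, a subunit of the peripheral stalk, read 17, 10.2 and 8.5 CPM in PWD and 29.2, 35.6 and 18.7 CPM in B6 (log2 change −1.24 ± 0.26 SE, edgeR adjusted p = 0.000938). Of the 36-base words of these transcripts 30.5% for Cox5b and 56.9% for Atp5h also occur in other genes in RefSeq, and the part of such copies in the low counts was not tested.

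Uqcrfs1 read 251, 330.3 and 189 CPM in PWD and 131, 155 and 95.8 CPM in B6, without overlap (log2 change 1.0 ± 0.17 SE, edgeR adjusted p = 9.09e-05). Atp5a1 read 1744, 2193 and 1393 CPM against 984, 1057 and 888 CPM, again apart. Ndufa5, an accessory subunit of complex I, read 20.5, 21.2 and 11.5 CPM against 3.77, 4.48 and 13.6 CPM, so that the third B6 library lay above the lowest of PWD (log2 change 1.48 ± 0.38 SE). Ndufv1, the NADH-binding subunit, was higher by 0.88, Uqcr10 by 0.92, Ndufc1 by 0.84, Ndufb6 by 0.77, Ndufa4 by 0.88, Atp5sl by 0.98 and Atp5f1 by 0.81. Sdhb was the called gene of complex II, at 0.54 ± 0.19 (SE). Of complexes III and IV, Uqcrh at 0.60 and Cox7a2 at 0.58 were also called.

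Most of the higher calls rested on few libraries. Leaving out PWD 2 left 7 calls, B6 wild-type 1 left 10, B6 wild-type 3 left 14, and B6 wild-type 2 or PWD 1 left 15 each; without the libraries above 55% Rn45s 13 were higher and 3 lower. A fit of only these 6 libraries called 3, where 1034 of 11272 genes tested were called in either direction. Scaling by totals without Rn45s moved the median of all genes to −0.25 and left 6 higher and 3 lower, the members standing 0.42 above all genes. On that scale 3118 of 13657 genes were called. Enterocyte markers summed to 24600 to 29992 CPM in PWD and 7443 to 17265 CPM in B6, with 2 of 9 called higher, and 3 of 6 proliferation markers were lower; their part in the members' levels was not tested.

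**Figure D4:**
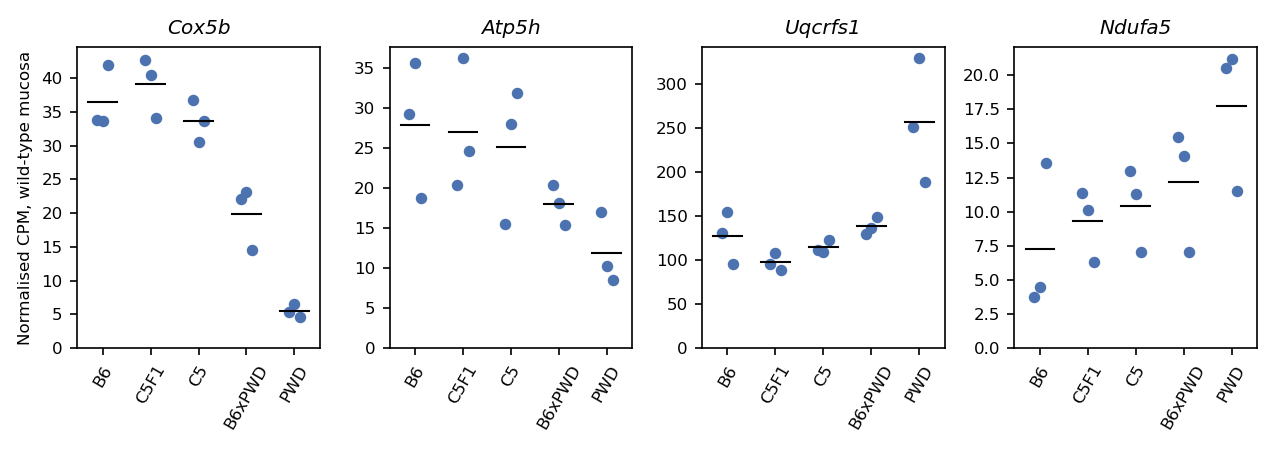
Normalised CPM of Cox5b, Atp5h, Uqcrfs1 and Ndufa5 in wild-type mucosa of the 5 backgrounds; points are libraries and lines are means of 3. Cox5b lies at 4.55 to 6.49 CPM in PWD, 14.5 to 23.1 CPM in B6xPWD and 33.7 to 41.9 CPM in B6.

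The B6xPWD hybrid was compared with B6 as the mean of wild-type mucosa, Min mucosa and adenoma. Of 75 members 20 were higher (18.7% of all genes) and 6 were lower (16.1%), with a median of 0.13. Atp5sl was at 27.3 ± 5.53 against 15.8 ± 4.16 CPM, Atp5c1 at 120.3 ± 28.7 against 70.7 ± 22.8 CPM, Uqcrc2 at 223 ± 40.0 against 167 ± 52.7 CPM and Ndufs1 at 79.6 ± 11.9 against 60 ± 17.8 CPM (SD, n = 9 each). Atp5f1 was higher by 0.56, Ndufa9 by 0.40, Uqcrh by 0.44, Sdhb by 0.34, Cox4i1 by 0.33, Uqcrfs1 by 0.30 and Sdha by 0.28 on the log2 scale. The 6 lower ones were Cox5b, at 18.9 ± 3.27 against 28.3 ± 7.72 CPM (SD, n = 9 each; log2 change −0.53 ± 0.11 SE, edgeR adjusted p = 0.000505), Atp5h at −0.56, Ndufv3 at −0.60, Ndufa7 at −0.60, Ndufc2 at −0.54 and Cox6b2 at −0.67. With totals without Rn45s the split turned to 6 higher and 9 lower, with all genes at −0.19 and the members at −0.05. Without B6 wild-type 1 17 were called.

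The consomic C5 carries PWD sequence only on chromosome 5. Of 75 members 5 were higher (10.3% of all genes) and 6 lower (8.35%), a share near that of all genes, and the median was −0.06. The higher ones included Atp5c1, at 107 ± 13 against 70.7 ± 22.8 CPM (SD, n = 9 each; edgeR adjusted p = 0.000504), Atp5f1 by 0.43, Ndufa5 by 0.86 and Sdha by 0.29. The lower ones, all of complex I, included Ndufv3, at 19.1 ± 5.10 against 31.0 ± 12.2 CPM (SD, n = 9 each), Ndufa7 at −0.65 and Ndufc2 at −0.71. In C5F1, 2 were higher (5.91%) and 11 lower (5.62%), with a median of −0.12. Atp5c1 and Ndufa5 were higher, by 0.53 and 0.89, and Ndufv3 at −0.88, Ndufa2 at −0.90, Ndufc2 at −0.82, Cox5a at −0.66, Cox8a at −0.62, Ndufa10 at −0.37 and Uqcrfs1 at −0.30 were among the lower.

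These comparisons, like that of PWD, share the B6 libraries, and those spread widely. Ndufc2 read 55.8, 74.8 and 16.4 CPM in B6 wild-type mucosa and 73.3, 46.5 and 28.0 CPM in B6 Min mucosa, with the third library lowest in both. Without B6 wild-type 3 the calls rose to 17 in C5 and 22 in C5F1, and they fell to 6 or 7 in C5 without B6 adenoma 2, B6 Min mucosa 1 or 2, B6 wild-type 1 or 2, C5 adenoma 3, C5 Min mucosa 2 or C5 wild-type 1, and to 8 in C5F1 without B6 Min mucosa 1 or B6 wild-type 1 or 2, with 20 without B6 Min mucosa 3. With the Rn45s share as a covariate 3 members in C5 and 2 in C5F1 were called.

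Of the members on chromosome 5, the one that C5 takes from PWD, none was called in C5 or C5F1. Cox6a1 lay at 142 ± 24.4 CPM in C5 and 162 ± 50.9 CPM in B6 (SD, n = 9 each; log2 change −0.18 ± 0.15 SE), Atp5k, subunit e of ATP synthase, at 13.4 ± 2.99 and 14.1 ± 4.13 CPM (−0.07 ± 0.16 SE), and Atp5j2, its subunit f, at 72.8 ± 6.77 and 75.9 ± 16.1 CPM (−0.04 ± 0.12 SE). In C5F1 the changes were −0.35 ± 0.15, −0.16 ± 0.17 and 0.02 ± 0.12 (SE). In B6xPWD Atp5j2 was called higher, at 97.4 ± 27.1 CPM (SD, n = 9; log2 change 0.35 ± 0.12 SE, edgeR adjusted p = 0.0194), and in PWD none of the 3 was called, at 0.56 for Cox6a1, 0.47 for Atp5k and 0.26 for Atp5j2. The fourth, Cox7b2, was below the count minimum.

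In organoids, AZA was compared with no treatment over both backgrounds. Of 77 members tested 2 were higher (15.0% of all genes) and 1 was lower (13.5%), with 6 at an unadjusted p under 0.05 and a median of −0.02 against 0.04 over all genes. The 2 higher members were both genes of complex I.

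Ndufa1, a small membrane subunit encoded on the X chromosome, read 32.3, 28.7, 41.5 and 36.7 CPM in control organoids and 55.4, 67.4, 42.9 and 60.8 CPM with AZA (B6 cultures first, then C5). All treated values exceeded all controls, with the first C5 culture least apart (log2 change 0.70 ± 0.18 SE, edgeR adjusted p = 0.00932). Ndufb7 read 144, 95.4, 114 and 99.7 CPM in controls and 178, 148, 167 and 161 CPM with AZA (0.53 ± 0.15 SE, edgeR adjusted p = 0.0127), likewise apart.

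Around the members much else moved with AZA. All 9 enterocyte markers rose (median 2.03), all 6 proliferation markers fell (median −1.04), and all 4 Paneth and all 4 goblet cell markers rose. Of 14 glycolysis genes 10 fell (median −0.85), including Hk2, a hexokinase, by 1.38, and of 77 mitochondrial ribosome genes 17 fell. Ppargc1a rose by 0.94 and Tfam fell by 1.09 on the log2 scale. Leaving out 1 library gave 1 to 9 called members, 1 without B6 control 2 and 9 without C5 AZA 3; with totals without Rn45s 2 were higher and 6 lower.

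Organoids of C5 and B6 were not shown to differ in these genes. Over both treatments edgeR called 0 of 77 members (0.396% of genes), with 3 at an unadjusted p under 0.05, and for the difference between backgrounds in the AZA change 0 of 77 (0% of genes), with 2 at an unadjusted p under 0.05, Atp5g1 and Ndufb6. DESeq2 also called 0 in both. With 2 libraries per group the differences that could be detected are limited. The SE of the difference in the AZA change was 0.45 for Atp5g1 and 0.32 for Ndufb6 on the log2 scale. These had the smallest p of the members, so their SE need not stand for the others.

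Untreated organoids were compared with Min mucosa of the same backgrounds, on a joint scale of all 47 libraries. Of 77 members 40 were higher (32.8% of all genes) and 18 lower (41.0%), with a median of 0.46 against −0.14 over all genes. Complex I had 19 higher and 6 lower, complex II 3 and 0, complex III 2 and 3, complex IV 6 and 5, and complex V 10 and 4. Calls in both directions thus occurred within complexes I, III, IV and V.

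Ndufa12, an accessory subunit of complex I, read 135, 155, 126 and 121 CPM in organoids and 5.73, 5.88, 4.65, 6.47, 6.23 and 5.60 CPM in mucosa, a log2 change of 4.47 ± 0.16 (SE; edgeR adjusted p = 1.60e-22). Ndufa5 read 117, 129, 139 and 139 CPM against 5.88, 3.09, 6.59, 9.15, 11.5 and 6.02 CPM (4.21 ± 0.25 SE). In the other direction Atp5d, a subunit of the central stalk, read 30.4, 47.9, 38.6 and 26.1 CPM in organoids and 244, 227, 159, 158, 149.7 and 200.2 CPM in mucosa (−2.40 ± 0.26 SE). Cox6a1 read 29.0, 28.1, 48.7 and 41.1 CPM against 229, 189, 135, 153, 152 and 154 CPM (−2.22 ± 0.23 SE). These 4 were picked as the 2 largest changes in each direction, so that their libraries did not overlap adds nothing to the calls.

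Further members that were higher in organoids were Ndufv2 by 1.87, Ndufa10 by 1.72, Cox7b by 1.90, Cox7a2l by 2.23, Cox7c by 3.33, Atp5j by 2.05, Atp5k by 2.30, Atp5f1 by 1.56, Atp5c1 by 1.60, Uqcrb by 1.99 and Uqcrh by 1.61 on the log2 scale. Uqcr10 at −1.69 and Uqcrq at −1.57, both small subunits of complex III, were lower. In complex II, Sdhd was higher by 1.39, Sdha by 0.88 and Sdhc by 0.40, while Sdhb, at 0.16, was not called (edgeR adjusted p = 0.351). Of the isoforms, Atp5g1 was higher by 3.24 and Atp5g3 was at −1.21, so the c-ring genes moved in opposite directions. Cox4i1 at 0.60 and Cox6b1 at 0.67 were also higher, and Cox8a at −1.51 and Ndufa4 at −1.09 lower. Cox7a1, Cox7a2, Cox6b2 and Ndufa4l2 were not called.

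The members were also split by transcript length and by copies of the sequence. Members under 700 nt had 9 higher and 9 lower of 28, with a median of 0.06. Longer ones had 30 higher and 9 lower of 48, with a median of 0.60. Over all genes the medians ran the other way. Genes under 700 nt had 106 higher and 118 lower of 304 (median 0.16), and longer ones 4633 and 5887 of 14053 (median −0.16). Whether the members' change differs with length was not tested. The 23 members with 10% or more of their 36-base words in other genes had a median of 0.94, and the other 53 of 0.35; the share was 28.5% for Ndufa12 and 0.595% for Ndufa5. Smooth muscle markers summed to 0.0822 to 3.76 CPM in organoids and 1176 to 2584 CPM in mucosa, enterocyte markers to 2160 to 4723 against 7898 to 16893 CPM, and proliferation markers to 1515 to 1961 against 408 to 613 CPM. Culture, cell makeup and the very different Rn45s share go together with the groups and cannot be told apart.

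**Figure D5:**
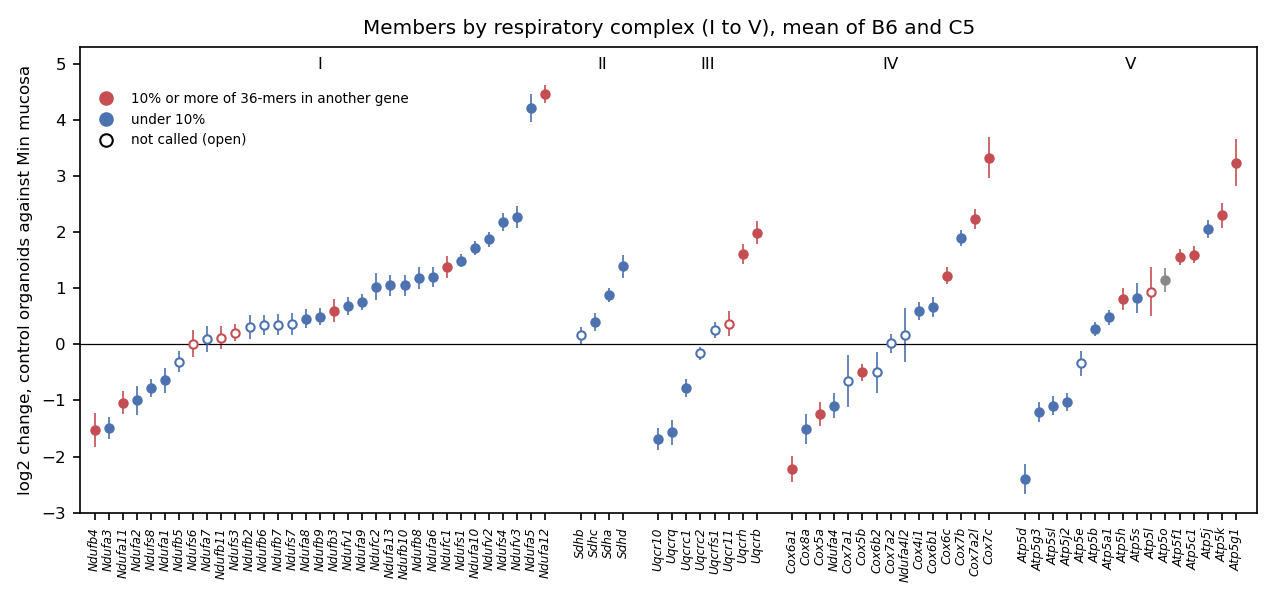
Log2 change of 76 tested members in untreated organoids against Min mucosa (vertical axis), by complex, as the mean of B6 and C5 with its SE; colour marks members with 10% or more of 36-base words shared with another gene and open points were not called. Ndufa12 at 4.47 and Ndufa5 at 4.21 lie highest and Atp5d at −2.40 lowest.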

How the data were processed

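The data were 47 RNA-seq libraries in 17 groups. The authors deposited raw read counts per gene symbol. RNA was depleted of ribosomal RNA and sequenced single-end from inserts of 80 to 130 nt, per the labels' protocols, and BWA, HTSeq and mm10 are named in the submitters' processing notes; versions, annotation and strand setting are not given in the sources used here. The 5 summary rows that name no gene equal 40.7% to 63.5% of each library's gene and summary counts and were left out.

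Genes were filtered with edgeR's filterByExpr (minimum count 10, minimum total 15), scaled by TMM and tested with edgeR 4.0.16 (glmQLFit, glmQLFTest) in R 4.3.3, with 1 mean per group and no block, in 3 fits: 39 tissue libraries (13657 genes), 8 organoid libraries (13395) and all 47 (15202, for organoids against mucosa). Adjusted p is Benjamini-Hochberg over all genes tested, in 17 comparisons, with a threshold of 0.05. Levels are normalised CPM on the scale of the fit used; 75 members passed the filter in tissue (not Atp5l, Cox4i2 and Ndufa4l2) and 77 in the other fits. SD is over libraries. SE was not estimated separately but taken as the absolute log2 change divided by the square root of the F statistic. The fits were run on simulated counts with the same setting of the spread for every gene and no pairing of libraries. Such counts cannot show the error rate on these libraries. Counts of replicate libraries differed by more than sampling noise in each of 43 pairs.

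Isoform pairs and the Sdh genes are described for adenoma over 4 backgrounds and for organoids against mucosa. Elsewhere these genes, and members on chromosome 5 in comparisons of backgrounds, are described only in part. An unnamed one may have been called. Other named members are, per comparison, the called ones with the 4 smallest p in each complex and the 2 largest changes each way, and further ones were chosen after their values were seen. A called member that this rule would name is not reported here. Members and lists were chosen with earlier results of these data known. Same-numbered adenoma and Min mucosa libraries deviated together in all 4 backgrounds (correlations of 0.131 to 0.512 over genes, each library closest to its own number), a pairing taken from the data, since the labels state none; other groups sharing numbers did not meet this. Alternatives were DESeq2 1.42.0, no low-count filter, totals without Rn45s, the Rn45s share as a covariate, a replicate block, only the groups compared, each library left out and, added after seeing the data, the libraries above 55% Rn45s left out.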

Additional observations from a re-analysis of the deposited data

How the results depend on the processing

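Each number that follows is a count of called members unless a median or genes are named. With totals without Rn45s in place of TMM, the count went from 36 to 11 for adenoma over 4 backgrounds, from 11 to 1 in B6 (median −0.10), from 12 to 0 in C5F1 (median −0.09) and from 2 to 0 in B6xPWD; it went from 25 to 9 for PWD (median 0.16), from 26 to 15 for B6xPWD against B6, and from 3 to 8 for AZA. Without a low-count filter, which tests more genes, it was 6 for B6 adenoma, 1 for B6xPWD adenoma, 7 for C5 against B6 and 5 for AZA, and DESeq2 also gave 5 for AZA. With the Rn45s share as a covariate it was 6 for B6 adenoma, 3 for C5 and 2 for C5F1 against B6. With only the groups compared in the fit, fewer libraries are left to estimate the spread. The count was then 0 for B6xPWD adenoma and 3 for PWD, where 699 of 11615 and 1034 of 11272 genes were called. It was 17 for B6xPWD against B6, where 3731 of 13054 genes were called. Without the libraries above 55% Rn45s it was 0 for C5F1 adenoma, where 1 adenoma library remains, and 16 for PWD. Apart from these constructions the cause was not tested. With the replicate number as a block the member count was 17 for B6 and 5 for B6xPWD adenoma, where the numbers pair libraries. Of all 13657 genes 4104 and 2407 were called there. For AZA the member count was 6, against 4242 of 13395 genes, where cultures share only a number (correlations of 0.00731 and 0.0469). The block moved no other member count by over 1.5 times. Leaving out 1 library gave 31 to 44 for adenoma over 4 backgrounds, 3 to 11 in B6, 2 to 18 in C5F1, 0 to 2 in B6xPWD and 0 in C5, 7 to 26 for PWD, 6 to 17 for C5, 8 to 22 for C5F1 and 17 to 31 for B6xPWD against B6, 1 to 9 for AZA and 56 to 59 for organoids against mucosa. The median over members was −0.35 to −0.26 for adenoma over 4 backgrounds and 0.26 to 0.56 for PWD in those fits. Of 726 checks of named members under the other settings 596 stayed called, 130 did not and 0 reversed, and of 1520 with 1 library left out 1349, 171 and 0. Depth limits the least abundant members: Cox4i2, Ndufa4l2 and Atp5l did not pass the low-count filter in tissue.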
